A study of Mus musculus with 11 samples.

Results

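Apolipoproteins are the protein coats of plasma lipoproteins, and very low density lipoprotein (VLDL) is the particle by which hepatocytes export triglyceride. The transcripts of 10 genes were followed in mouse liver: Apob, Mttp and Tm6sf2, which build the particle, and Apoe, Apoc1, Apoa1, Apoc3, Apoa4, Apoa5 and Apoa2, which encode apolipoproteins that can move between particles. The genes were chosen by name and found through their Ensembl identifiers. All 10 were among the 36788 identifiers of the deposited table, and all 10 passed the filter on low values, a mean over the libraries of 0.5 CPM or more, that left 12733 genes to test. CPM, counts per 1e+06 counted reads of a library, is the unit of the deposited table.

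Liver RNA was compared between 5 FSH-treated and 6 saline-treated mice. FSH is follicle-stimulating hormone, a gonadotropin of the pituitary. The comparison asked how liver transcripts differ when FSH is given from outside once the ovaries are gone, whether its action is direct or not. All 11 mice were females over 12 weeks of age. The labels give them as wild-type C57BL/6, whereas the study's methods place its mice on a mixed background that includes C57BL/6J, so the strain is uncertain. Each of them, in both groups, had been ovariectomized (OVX) and fed a high-fat diet, so the saline group, which the labels name OVX, differed from the FSH group by the injection given and there was no group with ovaries or on a standard diet. Each library was made from 1 liver, and the mice are numbered 1, 2, 3, 4 and 6 in the FSH group and 1 to 6 in the saline group.

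A VLDL particle forms in the endoplasmic reticulum when the large, non-exchangeable apolipoprotein B is loaded with triglyceride and phospholipid by the microsomal triglyceride transfer protein, the product of Mttp. Further lipid is added before the particle passes through the Golgi, a step for which TM6SF2 is needed. In plasma the exchangeable apolipoproteins then set how fast lipases act on the particle, how its remnants are taken up by the liver, and how high density lipoprotein (HDL) accepts cholesterol.

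Between 10801891 and 19909327 reads per library were counted on genes. Hepatocyte markers summed to between 92292 and 109670 CPM in the FSH livers and between 85723 and 112850 CPM in the saline livers, with 7 of 8 markers in the table. Of the 12733 genes tested with limma on log2(CPM + 0.5), 1350 passed an adjusted p of 0.05, with 788 higher and 562 lower in FSH livers. Fold changes here are on that log2 scale, FSH minus saline. In 3 libraries (FSH mouse 2 and saline mice 2 and 6) the values rose with transcript length. The mean deviation of genes with transcripts over 4 kb was between 0.11 and 0.15 on the log2 scale in these 3 libraries and between -0.11 and 0.05 in the other 8. For transcripts under 1 kb it was between -0.20 and -0.13 in the 3 and between 0.01 and 0.16 in the others. These are called long-transcript libraries below, and results are given with and without them, since the 10 genes run from 518 bases (Apoa2) to 13934 bases (Apob).

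Promoter sequences are shown for 2 sets of genes on which the comparisons below turn. Apoa1, Apoa4 and Apoa5 are neighbours in 1 cluster on chromosome 9, of which Apoa4 alone passed the test between FSH and saline livers, and Apob and Mttp are the partners of particle assembly. Each window holds 250 bases before and 50 bases from the transcription start of the RefSeq annotation of GRCm38.p6, written 5′ to 3′ on the strand of the gene. The RefSeq starts of Apoa1, Apoa4, Apob and Mttp lie inside the GENCODE gene spans given below, and the Mttp window lies wholly inside its span, so the windows and the matches in them depend on the start used. Capitals mark the matches, on either strand, to AGGTCA (letters bound by many nuclear receptors), to CAAAGG and to the longer CAAAGTCCA (letters of the kind that HNF4 binds), to the E-box CACGTG, and to the letters TATAAA known from core promoters. None of these motifs contains another.
Apoa1 promoter, chr9:46228380-46228679, plus strand: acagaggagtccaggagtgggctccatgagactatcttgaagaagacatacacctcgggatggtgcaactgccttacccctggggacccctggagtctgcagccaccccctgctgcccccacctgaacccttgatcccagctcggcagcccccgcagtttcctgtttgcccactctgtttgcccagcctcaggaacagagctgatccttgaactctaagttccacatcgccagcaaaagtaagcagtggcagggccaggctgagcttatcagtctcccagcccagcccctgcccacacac
Apoa4 promoter, chr9:46240594-46240893, plus strand: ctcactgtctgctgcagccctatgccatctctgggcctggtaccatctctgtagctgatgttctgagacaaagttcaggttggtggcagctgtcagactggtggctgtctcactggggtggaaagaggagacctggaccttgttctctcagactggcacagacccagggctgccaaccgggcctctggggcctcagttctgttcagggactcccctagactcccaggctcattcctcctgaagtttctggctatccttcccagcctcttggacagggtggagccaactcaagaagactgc
Apoa5 promoter, chr9:46268383-46268682, plus strand: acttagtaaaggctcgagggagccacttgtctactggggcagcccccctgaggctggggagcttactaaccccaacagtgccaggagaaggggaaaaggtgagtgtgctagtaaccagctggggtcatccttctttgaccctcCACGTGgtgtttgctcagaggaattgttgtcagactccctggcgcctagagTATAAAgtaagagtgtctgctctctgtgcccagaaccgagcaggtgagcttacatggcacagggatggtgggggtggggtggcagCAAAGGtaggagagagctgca
Apob promoter, chr12:7977427-7977726, plus strand: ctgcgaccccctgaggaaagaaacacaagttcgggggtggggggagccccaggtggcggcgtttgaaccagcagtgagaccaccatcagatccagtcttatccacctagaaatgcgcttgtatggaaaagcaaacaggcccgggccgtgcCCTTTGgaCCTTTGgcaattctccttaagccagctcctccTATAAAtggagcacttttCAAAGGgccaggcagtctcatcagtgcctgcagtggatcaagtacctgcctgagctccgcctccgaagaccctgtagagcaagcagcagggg
Mttp promoter, chr3:138143369-138143668, minus strand: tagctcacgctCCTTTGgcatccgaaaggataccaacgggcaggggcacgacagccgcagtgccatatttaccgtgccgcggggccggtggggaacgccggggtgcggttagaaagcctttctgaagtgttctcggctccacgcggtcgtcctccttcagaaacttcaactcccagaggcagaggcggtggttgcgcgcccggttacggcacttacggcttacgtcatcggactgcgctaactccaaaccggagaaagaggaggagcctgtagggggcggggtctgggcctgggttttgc
Neither the Apoa1 nor the Apoa4 window held any of these motifs, which says only that they are not in these windows. The Apoa5 window held TATAAA at -56, CACGTG at -107 and CAAAGG at 30 from the start. The Apob window held TATAAA at -60 and CAAAGG at -42 on the strand shown and at -92 and -100 on the other strand, while Mttp had CAAAGG at -239 on the other strand. Among all 32851 windows of the same length, TATAAA was found in 13.6%, CACGTG in 7.15%, CAAAGG in 20.3%, AGGTCA in 16.3% and CAAAGTCCA in 0.475%.

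The 10 genes together took between 5.88% and 8.58% of all counted reads in the FSH livers (7.38% ± 0.99, SD, n = 5) and between 6.98% and 8.79% in the saline livers (7.85% ± 0.78, SD, n = 6). By mean CPM, Apoe ranked 2, Apoa1 ranked 4 and Apoa2 ranked 5 among all genes, whereas Mttp ranked 457 and Tm6sf2 ranked 2627. These ranks take no account of transcript length, so levels were compared between the genes as CPM per kilobase of transcript. On that scale Apoe (mean level 24982 over the 11 livers) and Apoa2 (24678) could not be ordered, since Apoe was the higher in 4 of 11 livers. Apoa1 followed at 13321, then Apoc1 at 8549 and Apoc3 at 6447. The ranges of these last levels overlapped, although Apoc1 was above Apoc3 in 11 of 11 livers. Apoa5 (928) and Apoa4 (704) also overlapped. In the saline livers they could not be ordered, with mean levels of 939 for Apoa4 and 897 for Apoa5 and Apoa5 higher in 3 of 6. In the FSH livers the levels were 423 and 965, with Apoa5 higher in 5 of 5. Their ratio is compared between the groups below. Apob (195), Mttp (79.9) and Tm6sf2 (32.7), the genes of particle assembly, had the lowest levels per kilobase, with no overlap between neighbours in this order.

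**Figure D1:**
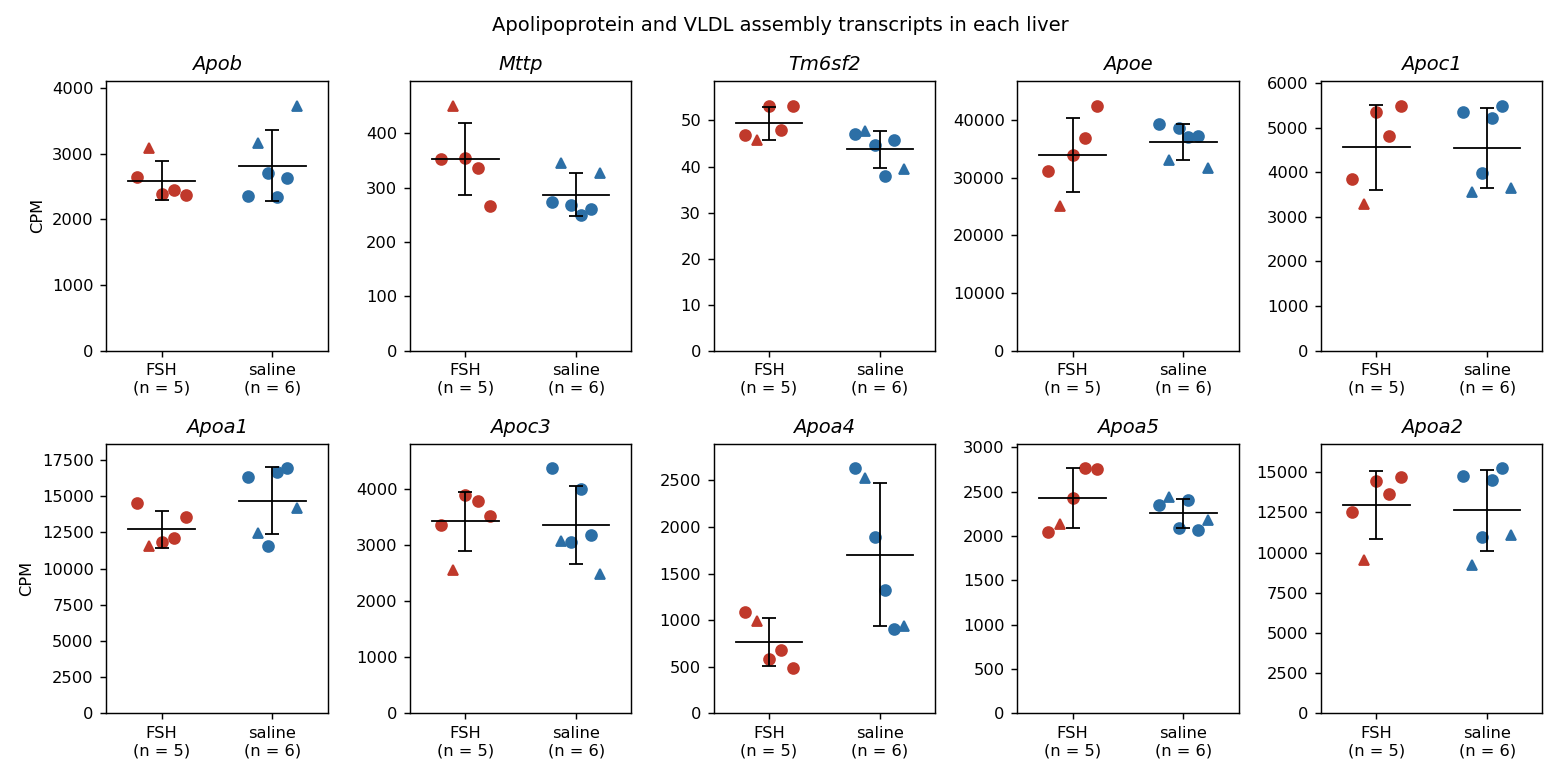
CPM of each of the 10 genes in each liver, FSH (red, n = 5) and saline (blue, n = 6), with the vertical axis starting at 0 and horizontal lines and bars for mean ± SD. Triangles are the 3 long-transcript libraries. Apoa4 ranged from 492 to 1091 in FSH livers and from 906 to 2630.3 in saline livers, and the groups overlap in every panel.

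Of the 10 genes, 1 passed an adjusted p of 0.05 in limma, against 10.6% of all genes tested. It was Apoa4, which was lower in the FSH livers, where 4.41% of all genes were called lower. It was also past both of the study's thresholds, which ask for an adjusted p under 0.05 together with a change of more than 1 on the log2 scale in either direction, as were 1.83% of all genes. None of the 10 was called higher, against 6.19% of all genes in limma, and edgeR and DESeq2 called none higher either. At an unadjusted p under 0.05, 1 was higher (Mttp) and 1 was lower (Apoa4), where 3196 of all 12733 genes were under it. For 0 of the 10 the FSH and saline values were free of overlap, against 6.67% of all genes. A share of 1 in 10 is near that background and is given as a description of these genes. The median log2 fold change over the 10 genes was 0.02, and over all genes tested it was also 0.02.

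Apob encodes the structural protein of VLDL, and its transcript has 29 exons on chromosome 12 (chr12:7977648-8016835, plus strand, GRCm38). FSH mice 1, 2, 3, 4 and 6 had 2638, 3082, 2392, 2441 and 2371 CPM. Saline livers ran from 2341 through a median of 2660.3 to 3733 CPM. The groups overlapped, and the 2 highest of all livers were saline mice 6 and 2, with FSH mouse 2 next, which are the 3 long-transcript libraries. The log2 fold change was -0.11 (SE 0.13, 95% interval -0.39 to 0.16, limma adjusted p = 0.646), and -0.02 without those libraries. Apob, with the longest transcript of the 10, had 3082 to 3733 CPM in the 3 long-transcript libraries and 2341 to 2699 CPM in the other 8, with no overlap between them.

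Mttp encodes the lipid-carrying subunit of the microsomal triglyceride transfer protein (chr3:138089854-138144968, minus strand, 18 exons). Its FSH values were 353, 451, 354, 336 and 266 CPM for mice 1, 2, 3, 4 and 6. In saline livers the lowest was 249, the median 271 and the highest 345 CPM. Of the 5 FSH livers, 3 were above every saline liver, and FSH mice 4 and 6 lay among the saline values. The mean was 352 ± 66.0 CPM (SD, n = 5) in FSH livers and 287 ± 38.9 CPM (SD, n = 6) in saline livers. The log2 fold change was 0.28 (SE 0.12, 95% interval 0.02 to 0.55), which did not pass adjustment over all genes (limma adjusted p = 0.168, exact permutation p = 0.0758). It was 0.31 without the long-transcript libraries (limma adjusted p = 0.0984). With each library's length slope as a term of the fit it was 0.37 and passed (limma adjusted p = 0.0104), and it also passed without FSH mouse 6 (0.38, limma adjusted p = 0.0451). Without FSH mouse 2 it was 0.19 (limma adjusted p = 0.354), the lowest of the 26 alternatives. Trmt10a, which overlaps Mttp on the other strand, had 2.10 to 4.46 CPM.

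Tm6sf2 encodes a membrane protein of the endoplasmic reticulum and Golgi needed to fill VLDL with lipid (chr8:70072924-70080066, plus strand, 10 exons). FSH livers had 46.9, 45.7, 53.2, 47.9 and 53.1 CPM, and saline livers ran from 38.0 through a median of 45.2 to 47.6 CPM. The groups overlapped, with 3 FSH livers above all saline livers and 3 saline livers below all FSH livers. The log2 fold change was 0.17 (SE 0.09, 95% interval -0.01 to 0.36, limma adjusted p = 0.231). An exact two-sided permutation test of this gene by itself, over all 462 splits of the 11 livers into 5 and 6, gave p = 0.0476. Tm6sf2 hardly followed transcript length, since the length slope took 4.85% of its sum of squares within groups, against 83.9% for Apob and 70.6% for Mttp.

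Because a ratio of genes within a liver does not depend on scaling between libraries, 10 pairs of neighbouring or partner genes were compared as log2 ratios of CPM + 0.5, with exact two-sided permutation tests adjusted over the 10 pairs. Only Apob over Mttp passed. This log2 ratio was 2.90, 2.77, 2.75, 2.86 and 3.15 in the FSH livers and ran from 3.11 to 3.51 in the saline livers. FSH mouse 6 was the single FSH liver that reached the saline range. The mean was 2.89 ± 0.16 (SD, n = 5) in FSH livers and 3.28 ± 0.14 (SD, n = 6) in saline livers, a difference of -0.40 (SE 0.09, exact permutation p = 0.00433, adjusted p = 0.0433). Apob and Mttp both rose with the length slope, by 0.32 and 0.31 log2 units per 0.1 of slope, and with the slope taken out of the ratio the difference was -0.39 (adjusted p = 0.0433, exact permutation test). Without the long-transcript libraries the difference was -0.33 (adjusted p = 0.171, exact permutation test), where 4 livers against 4 allow 1 pair on its own an adjusted p of 0.286 at best. Leaving out FSH mouse 1, 2, 3 or 4 gave differences from -0.40 to -0.36 and adjusted p from 0.0635 to 0.0952 (exact permutation tests). With 4 livers against 6, a single pair can reach an adjusted p of 0.0476 at best, and that takes full separation of the groups, which FSH mouse 6 did not allow. Without any 1 saline liver the smallest adjusted p that 1 pair on its own can reach over 10 pairs is 0.0794. Apob over Tm6sf2 differed by -0.29 (exact permutation p = 0.119, adjusted p = 0.198) and Mttp over Tm6sf2 by 0.11 (exact permutation p = 0.532, adjusted p = 0.592).

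**Figure D2:**
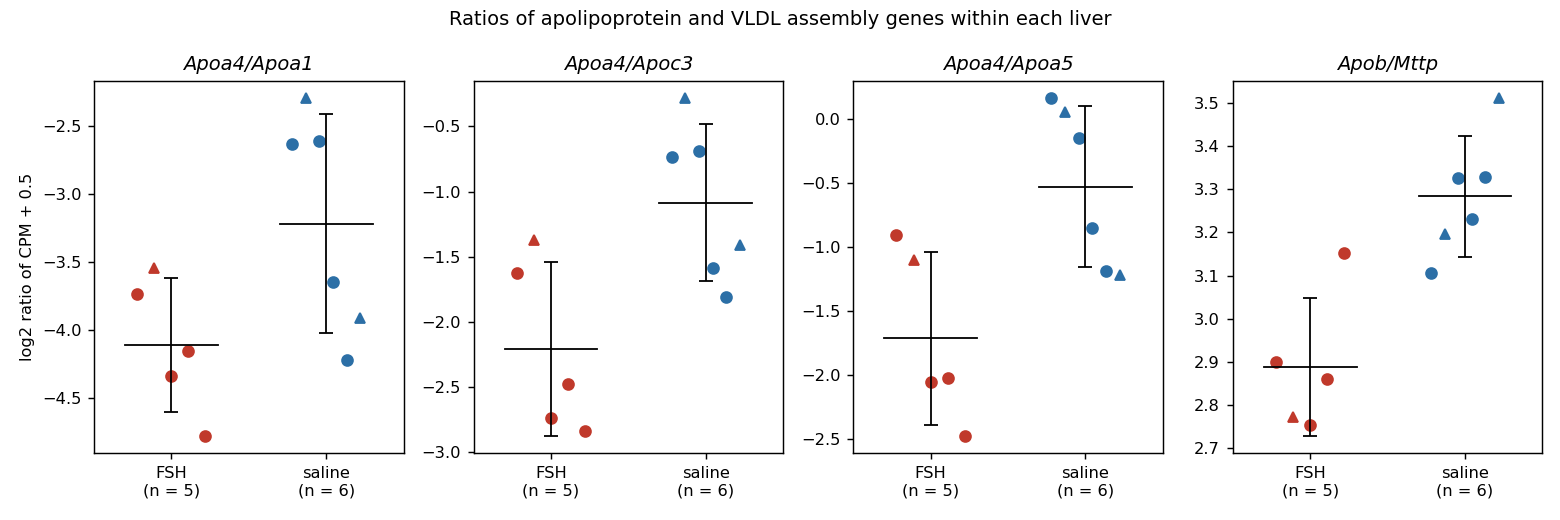
Log2 ratio of CPM + 0.5 within each liver for 4 pairs of genes, FSH (red, n = 5) and saline (blue, n = 6), with lines and bars for mean ± SD and triangles for the 3 long-transcript libraries. The axes do not start at 0. For Apob over Mttp, 4 of 5 FSH livers lie below all saline livers, and for the 3 ratios with Apoa4 the FSH and saline livers overlap.

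Apoe and Apoc1 lie side by side on chromosome 7 with 3448 bases between them. Apoe encodes the ligand by which remnants are bound by receptors on hepatocytes (chr7:19696109-19699188, minus strand, 4 exons). FSH livers had 31253, 25173, 33985, 36993 and 42543 CPM, and saline livers ran from 31671 through a median of 37156 to 39377 CPM. The FSH livers spread on both sides of the saline range, 2 below it and 1 above it. The log2 fold change was -0.11 (SE 0.15, 95% interval -0.42 to 0.21, limma adjusted p = 0.715), and it was -0.0036 without FSH mouse 2 and -0.19 without FSH mouse 6. Apoc1, whose protein slows receptor uptake of remnants (chr7:19689481-19692660, minus strand, 3 exons), had 3851, 3294, 5349, 4807 and 5492 CPM in the FSH livers. In the saline livers it ran from 3558 through a median of 4594 to 5481 CPM. The ranges nearly coincided, and the log2 fold change of 0.0033 (SE 0.16, 95% interval -0.35 to 0.35, limma adjusted p = 0.994) became -0.02 after TMM scaling. In the long-transcript libraries Apoc1 had 3294 to 3649 CPM and in the other 8 it had 3851 to 5492 CPM, with no overlap. Apoe over Apoc1 differed by -0.11 between the groups (exact permutation p = 0.348, adjusted p = 0.436).

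Apoa1, Apoc3, Apoa4 and Apoa5 form a cluster on chromosome 9, with 2466, 5059 and 25173 bases between neighbours in that order. Apoa4 was the gene of the cluster that passed the test. Its protein is a coat of triglyceride-rich particles and HDL that is made in the intestine and, in mice, also in the liver (chr9:46240696-46243459, plus strand, 3 exons). FSH mice 1, 2, 3, 4 and 6 had 1091, 990.0, 583, 679 and 492 CPM. Saline mice 1 to 6 had 2630.3, 2530, 1891, 1329, 906 and 939 CPM. Of the 5 FSH livers, 3 were below every saline liver, and 4 of the 6 saline livers were above every FSH liver. Saline mice 5 and 6 lay within the FSH range. The mean was 767 ± 261 CPM (SD, n = 5) in FSH livers and 1704 ± 767 CPM (SD, n = 6) in saline livers. Apoa4 was lower with FSH by a log2 fold change of -1.09 (SE 0.29, 95% interval -1.72 to -0.46), which is 0.471 times the saline level with an interval of 0.304 to 0.727 (limma adjusted p = 0.0292, exact permutation p = 0.026). In bulk liver, fewer cells of a type and less RNA per cell cannot be told apart.

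The call on Apoa4 held without the long-transcript libraries (-1.20, limma adjusted p = 0.0334) and with the length slope as a term (-1.03, limma adjusted p = 0.0391). Counted as whole reads it was -1.18 in edgeR (adjusted p = 0.0199) and in DESeq2 (adjusted p = 0.00927). It no longer passed when any 1 of 6 livers was left out. Without FSH mouse 3, 4 or 6 the limma adjusted p was 0.0770, 0.0639 and 0.0607, and without saline mouse 1, 2 or 3 it was 0.0562, 0.0546 and 0.0613. Those fits gave log2 fold changes from -1.06 to -0.94. Apoa4 varied more between mice of a group than any other of the 10 genes, with a coefficient of variation of 34.0% in FSH livers and 45.0% in saline livers. The other 9 genes had 7.22% to 21.0% in FSH livers and 7.20% to 20.6% in saline livers.

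Gm10680, an antisense gene that overlaps Apoa4 on the other strand, ran from 24.0 to 78.4 CPM in FSH livers and from 63.1 to 252 CPM in saline livers. Its log2 fold change was -1.31 (SE 0.34, limma adjusted p = 0.0247). It stood at 6.74% ± 1.05 (SD, n = 5) of the Apoa4 value with FSH and 7.91% ± 1.20 (SD, n = 6) in saline livers. Whether strand was used in counting is not given in the sources used here, so reads of Apoa4 and Gm10680 cannot be told apart. Since Apoa4 is also an intestinal transcript, enterocyte markers were examined. The sum over the 8 markers was between 204 and 291 CPM in FSH livers and between 159 and 244 CPM in saline livers. Of the 2 that could be tested 0 passed in limma, against 10.6% of all genes. Alpi, Sis and Lct had no read in any of the 11 livers, while each of the other markers had reads in at least 1. The cells from which the Apoa4 reads came were not tested.

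Apoa1 encodes the main protein of HDL (chr9:46228580-46230466, plus strand, 4 exons). FSH livers had 14539, 11547, 11817, 12134 and 13574 CPM, and saline livers ran from 11557 through a median of 15243 to 16930 CPM. The groups overlapped, with 3 saline livers above all FSH livers. The log2 fold change was -0.20 (SE 0.13, 95% interval -0.48 to 0.09, limma adjusted p = 0.399). Apoc3, whose protein inhibits lipoprotein lipase (chr9:46232933-46235636, minus strand, 4 exons), had 3367, 2565, 3887, 3787 and 3526 CPM with FSH. With saline it ran from 2490 through a median of 3128 to 4372 CPM. All FSH livers were inside the saline range, and the log2 fold change of 0.04 (SE 0.15, 95% interval -0.28 to 0.36, limma adjusted p = 0.913) became -0.0023 in edgeR. Apoa5 encodes a scarce plasma protein that promotes lipolysis of triglyceride by lipoprotein lipase (chr9:46268633-46271919, plus strand, 4 exons). It had 2046, 2132, 2431, 2765 and 2755 CPM in FSH livers and ran from 2064 through a median of 2267 to 2436 CPM in saline livers. FSH mice 4 and 6 were above all saline livers and FSH mouse 1 was below them, with a log2 fold change of 0.10 (SE 0.10, 95% interval -0.12 to 0.32, limma adjusted p = 0.617).

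Within the cluster, then, the log2 fold changes were -0.20 for Apoa1, 0.04 for Apoc3, -1.09 for Apoa4 and 0.10 for Apoa5. Whether Apoa4 changed by a different amount from its neighbours was tested on the ratios within each liver. Apoa4 over Apoc3 differed by -1.13 (exact permutation p = 0.0281), Apoa4 over Apoa5 by -1.18 (exact permutation p = 0.0325) and Apoa4 over Apoa1 by -0.89 (exact permutation p = 0.0736). After adjustment over the 10 pairs these values were 0.108, 0.108 and 0.184, so none passed. Apoa4 over Apoa5 was -0.91, -1.11, -2.06, -2.02 and -2.48 in the FSH livers and ran from -1.22 to 0.16 in the saline livers, so FSH mice 1 and 2 lay within the saline range. The remaining pairs of the cluster differed by -0.29 (Apoa1 over Apoa5), -0.23 (Apoa1 over Apoc3) and -0.06 (Apoc3 over Apoa5), with adjusted p from exact permutation tests of 0.186, 0.235 and 0.677.

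Apoa2 encodes the second protein of HDL (chr1:171225054-171226379, plus strand, 4 exons). FSH livers had 12505, 9519, 14462, 13646 and 14714 CPM, and saline livers ran from 9203 through a median of 12802 to 15242 CPM. All FSH livers were inside the saline range, and the log2 fold change of 0.05 (SE 0.16, 95% interval -0.30 to 0.39, limma adjusted p = 0.899) became -0.06 with the length slope as a term. Taken over Apoa2 and the other 8 genes apart from Apoa4, log2 fold changes lay between -0.20 and 0.28. Their 95% intervals ran from 0.717 to 1.46 times the saline level, so a larger difference than these bounds was outside the interval of each of the 9 genes.

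**Figure D3:**
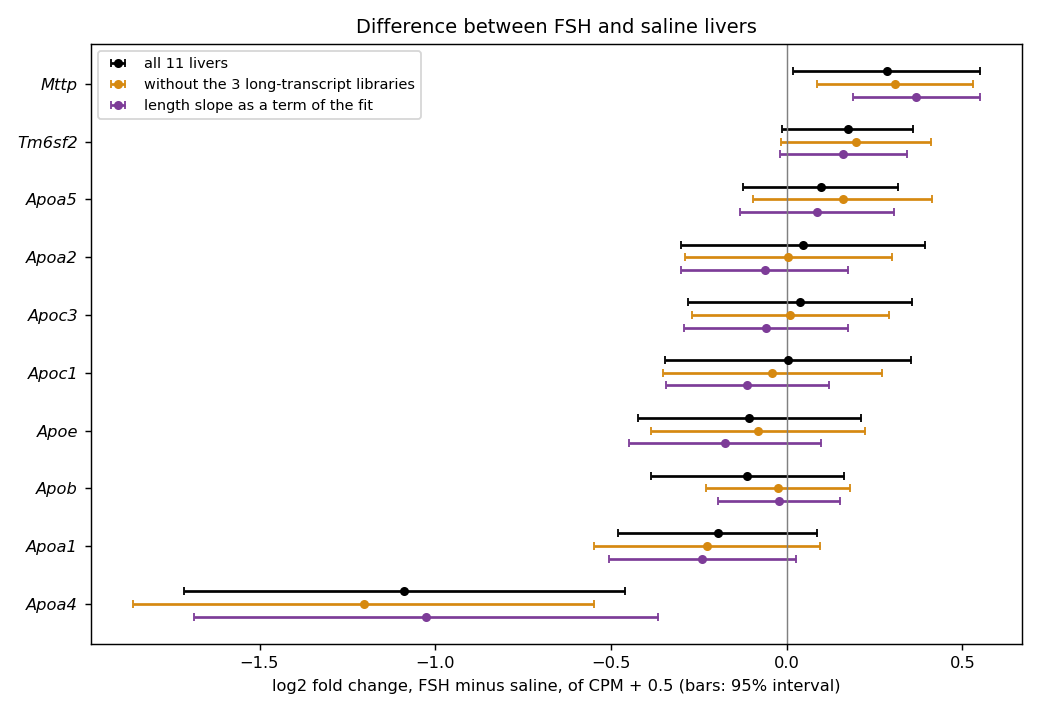
Log2 fold change of CPM + 0.5 (FSH minus saline) for each of the 10 genes, with 95% intervals from limma, from all 11 livers (black), without the 3 long-transcript libraries (orange) and with the length slope as a term (purple). Only Apoa4 has intervals below 0 in all 3 fits, while those of Mttp are above 0 and those of the other 8 genes cross 0.

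For 6 of the 10 genes, most of the spread among livers of a group went with the length slope of the library. With the length slope in the fit, short transcripts fell as the slope rose, by 0.39 log2 units per 0.1 of slope for Apoa2, 0.34 for Apoc3 and 0.41 for Apoc1, and the long Mttp and Apob rose by 0.31 and 0.32. The slope took between 55.3% and 83.9% of the sum of squares within groups for Apob, Apoa2, Apoc1, Mttp, Apoc3 and Apoe. For Apoa1 it took 25.0%, and for Apoa4, Tm6sf2 and Apoa5 it took 5.31%, 4.85% and 2.97%. The long-transcript libraries were 1 of 5 in the FSH group and 2 of 6 in the saline group. Their part in the difference of each gene is shown by the fits without them, in which none of the 10 genes changed its side of the adjusted threshold.

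**Figure D4:**
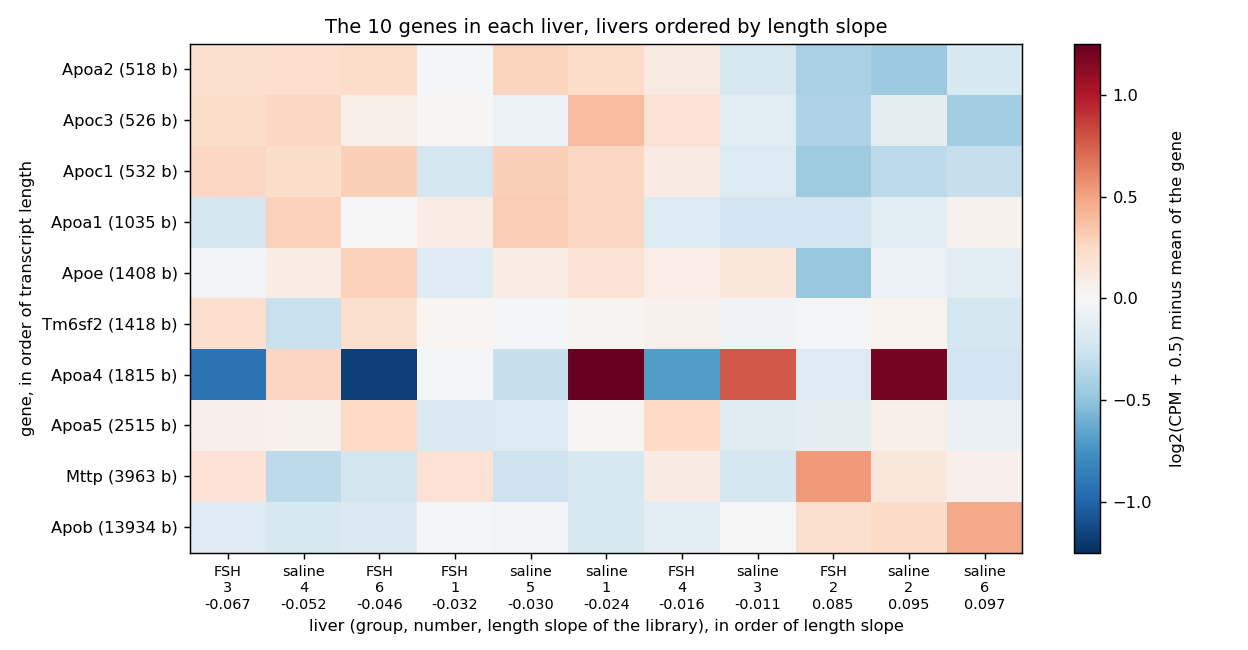
Log2(CPM + 0.5) of each of the 10 genes in each liver minus the mean of the gene, with genes from the shortest transcript (top, length in bases in brackets) to the longest and livers in order of length slope (the last line of each label). In the 3 livers at the right, Apob and Mttp are above their means and Apoa2, Apoc3 and Apoc1 below, while Apoa4 differs most from liver to liver.

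Other genes of lipoprotein metabolism were read in 5 lists. These were chosen with earlier results of these data known, so their shares are a description and no set test was run. The first list held genes linked to VLDL assembly and secretion, whether they aid or limit it. Of 29 tested (30 listed), 9 passed in limma, 3 higher and 6 lower. That is 31% of the list, where 10.6% of all genes passed, and its median log2 fold change was 0.04. Higher in FSH livers were Lpcat3, which remodels phospholipids of the endoplasmic reticulum (0.56, limma adjusted p = 0.00867), Tor1a, an ATPase of its lumen (0.48, limma adjusted p = 0.0019), and Sar1b, a GTPase of the coat that carries cargo to the Golgi (0.48, limma adjusted p = 0.00508). Sar1b went from 265 ± 25.2 CPM (SD, n = 6) in saline livers to 369 ± 40.4 CPM (SD, n = 5) in FSH livers. Lower were the carboxylesterase Ces1g (-0.76, limma adjusted p = 0.000492), the lipid scramblase Vmp1 (-0.62, limma adjusted p = 0.000969) and the chaperone Hspa5, also called BiP (-0.99, limma adjusted p = 0.00455). Hspa5 had 344 ± 62.1 CPM (SD, n = 5) in FSH livers and 704 ± 236 CPM (SD, n = 6) in saline livers. For each of these 6 genes the FSH and saline livers did not overlap, as for 6.67% of all genes. The 6 were picked for the smallest p among the 9 that passed, which favours separated groups.

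Of 14 other apolipoproteins tested (15 listed), 4 passed in limma, 1 higher and 3 lower. This was 28.6%, against 10.6% of all genes, and the median log2 fold change was -0.06. Lower were serum amyloids A, which are carried on HDL. Saa1, an acute-phase form, had 57.0 ± 19.9 CPM (SD, n = 5) in FSH livers and 151 ± 48.1 CPM (SD, n = 6) in saline livers (-1.44, limma adjusted p = 0.00314). Its near-identical paralog Saa2 (-1.19, limma adjusted p = 0.0101) may share reads with it, and Saa4 fell by 0.69 (limma adjusted p = 0.0248), a call that was lost in 5 of 26 alternative analyses. Markers of Kupffer cells and macrophages summed to between 111 and 304 CPM in FSH livers and between 182 and 360 CPM in saline livers. Of these 8 markers 1 was called (Cd68), against 10.6% of all genes. The part of these cells in the serum amyloid values was not tested. Apol7a, of the intracellular apolipoprotein L family, was higher (0.33, limma adjusted p = 0.0114), with the call lost in 1 of 26 alternatives.

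Of 33 regulators of apolipoprotein genes, most of them transcription factors or cofactors, 9 passed in limma, 5 higher and 4 lower. This was 27.3%, against 10.6% of all genes, and the median log2 fold change was -0.04. The clock repressors Nr1d2 and Nr1d1 were higher by 2.06 (limma adjusted p = 2.15e-05) and 1.64 (limma adjusted p = 0.00231). Nr1d2 went from 12.3 ± 3.43 CPM (SD, n = 6) in saline livers to 52.0 ± 11.9 CPM (SD, n = 5) in FSH livers, with no overlap. Srebf1, which drives lipogenic genes, had 446 ± 29.7 CPM (SD, n = 5) in FSH livers and 223 ± 86.5 CPM (SD, n = 6) in saline livers (1.09, limma adjusted p = 0.00474). The nuclear receptor Nr2f2 was also higher (0.52, limma adjusted p = 0.0193), a call lost in 3 of 26 alternatives. Nr0b2, the corepressor SHP, was lower (-1.32, limma adjusted p = 0.0142), as was Hnf4a, a hepatocyte nuclear receptor that binds many apolipoprotein promoters (-0.44, limma adjusted p = 0.0369). Hnf4a had 355 ± 52.3 CPM (SD, n = 5) in FSH livers and 486 ± 85.7 CPM (SD, n = 6) in saline livers, the groups overlapped, and the call was lost in 10 of 26 alternative analyses. Without the long-transcript libraries 4 genes of this list passed.

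Of 20 genes that process lipoproteins in plasma, 4 passed in limma, 1 higher and 3 lower. This was 20%, against 10.6% of all genes, and the median log2 fold change was -0.10. Pltp, the phospholipid transfer protein, was higher (0.81, limma adjusted p = 0.0101). Bmp1, a protease that matures pro-apolipoprotein A-I (-0.54, limma adjusted p = 0.00254), Angptl4, an inhibitor of lipoprotein lipase (-0.99, limma adjusted p = 0.0162), and the hepatic lipase Lipc (-0.29, limma adjusted p = 0.0326) were lower. The call on Lipc was lost in 11 of 26 alternative analyses and that on Angptl4 in 1, and 2 genes of the list passed without the long-transcript libraries. Of 19 receptors and uptake genes tested (20 listed), 6 passed in limma, 3 higher and 3 lower. This was 31.6%, against 10.6% of all genes, and the median log2 fold change was 0.01. Lrpap1, a chaperone of lipoprotein receptors, was higher, with 71.7 ± 10.8 CPM (SD, n = 5) in FSH livers and 50.3 ± 4.997 CPM (SD, n = 6) in saline livers (0.50, limma adjusted p = 0.00725). Lower were Lrp5 (-0.78, limma adjusted p = 0.00543), the ubiquitin ligase Mylip (-0.56, limma adjusted p = 0.0304), and the fatty acid transporter Cd36 (-0.79, limma adjusted p = 0.0346). The calls on Mylip and Cd36 were lost in 9 and 10 of the 26 alternatives.

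**Figure D5:**
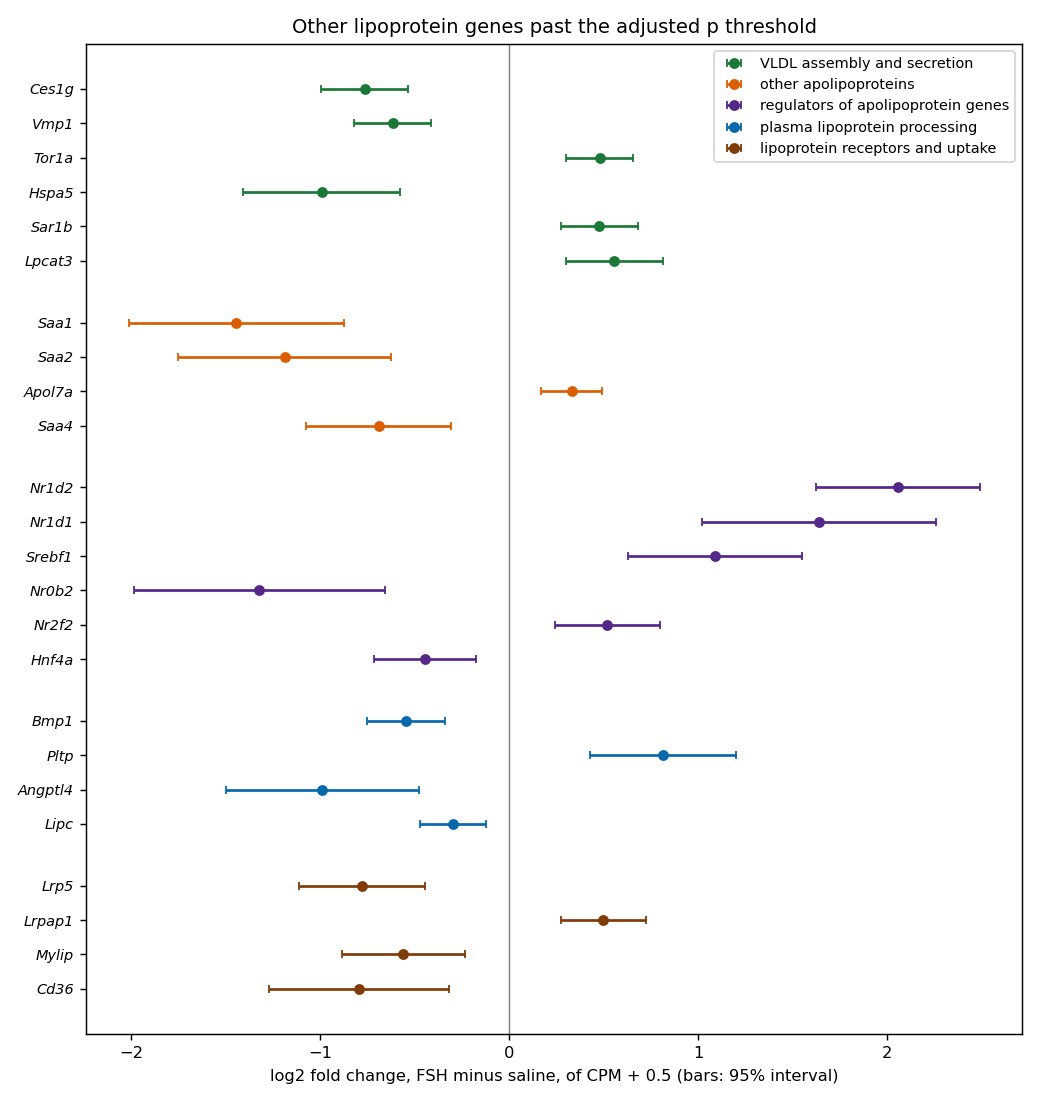
Log2 fold change of CPM + 0.5 (FSH minus saline) with 95% limma intervals for the genes named from the 5 lists, coloured by list, at most 6 genes from each list among those past an adjusted p of 0.05. The genes were chosen by this threshold, so no interval crosses 0, and values run from -1.44 (Saa1) to 2.06 (Nr1d2).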

How the data were processed

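Whole liver from 11 mice was digested with papain, and libraries were made from total RNA with a NEBNext Ultra kit. The authors deposited 1 table of CPM values (counts per 1e+06 counted reads) covering 36788 Ensembl identifiers, in which low genes are kept and every library sums to the same total. The submitters' processing notes list the build mm10, FastQC 0.11.2, Trim Galore 0.3.3, cutadapt, STAR and RSEM. RSEM gives estimated counts that need not be whole, whereas the deposited values came out as whole reads, so which counting step made the table is not clear. The annotation and the use of strand are not given in the sources used here, so positions of genes are those of GENCODE M21 (GRCm38), which named 35555 of the identifiers and left 1233 unnamed.

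Whole reads were recovered from the steps of the CPM values (100% of values within 0.1 of a whole read), and they gave depth and the count-based alternatives. A gene without reads could have had up to 3 reads, or 0.151 to 0.278 CPM, which covers counting error only. For genes whose mean reached 0.5 CPM, log2(CPM + 0.5) was fitted in limma 3.58.1 under R 4.3.3 (eBayes with intensity trend, no covariate, Benjamini-Hochberg over all genes). This scale understates changes of low genes. Single genes and ratios were tested by exact two-sided permutation, whose smallest p was 0.00216. Labels do not say more of the replicates than that each is 1 liver. No pair of libraries of the same group agreed within sampling noise, since the smallest chi-square, averaged over genes, was 11.2. The length slope of a library is that of its log2 deviations on log2 transcript length, taken over genes with a length (99.2% of those tested), using the longest principal or else longest basic transcript.

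The 10 genes and the lists were chosen with earlier results of these data known. Every one of the 10 is named, and from each list at most 6 genes past an adjusted p of 0.05, by smallest p. Some results are not reported here. Markers are given as sums. Alternatives were other pseudocounts, filters and scalings, a fit without trend, array weights, the replicate number as a block, each liver left out in turn, voom, edgeR 4.0.16, DESeq2 1.42.0 and thinned reads. Those on the long-transcript libraries and the length slope were chosen after seeing the data. Scripts were tested on simulated data. Promoters came from a RefSeq table (GRCm38.p6) in which 7 of the 10 genes had an entry, and Apoc1, Apoc3 and Tm6sf2 did not.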

Additional observations from a re-analysis of the deposited data

Results flagged for a closer look

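The log2 ratio of Apoe over Apoc1 in FSH mouse 3 was 2.67, below the other 4 FSH livers, whose values were 2.93 to 3.02. Its gap to the nearest of them was 0.755 of the range of the group. In all, 42 groups of values were examined in this way, and chance gives such a gap in about 1 of 20. In this liver Apoc1 had 5349 CPM, with a group mean of 4559 ± 956 CPM (SD, n = 5), and Apoe had 33985 CPM, with a group mean of 33989 ± 6469 CPM (SD, n = 5).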

How the results depend on the processing

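Directions and sides of the threshold held for Apoa1, Apoa5, Apob, Apoe and Tm6sf2 in all 26 alternatives, and Mttp and Apoa4 kept their directions. Log2 fold changes near 0 turned sign: Apoa2 to -0.0626 with the length slope as a term, Apoc1 to -0.0244 with median-of-ratios scaling, -0.0247 with TMM, -0.0253 with voom, -0.0223 in edgeR, -0.0203 in DESeq2, -0.0407 without the long-transcript libraries and -0.11 with the slope, and Apoc3 to -0.0023 in edgeR, -0.00095 in DESeq2 and -0.0583 with the slope. With 1 liver left out they ran from -0.0396 to 0.15 (Apoa2), -0.0707 to 0.11 (Apoc1) and -0.0439 to 0.14 (Apoc3), and ratio differences from -0.0107 to 0.23 (Mttp over Tm6sf2) and -0.13 to 0.0092 (Apoc3 over Apoa5). Of the 10 genes, 0 passed without the filter on low genes, where more genes were tested (Apoa4 adjusted p = 0.0636 in limma), 2 passed with the slope, and 0 to 1 passed with a liver left out. Over all genes, 844 (480 higher, 364 lower) passed without the 3 long-transcript libraries, where fewer livers entered, 1189 were higher with the slope, and with 1 liver left out 804 to 1659 passed (451 to 1039 higher, 353 to 620 lower). Genes of the regulator list passing were 5 without the filter, 5 without the intensity trend, 4 without the long-transcript libraries and 4 to 9 with a liver left out, and 2 plasma-processing genes passed without those libraries. Apart from the cases explained by the livers or genes that entered, the cause was not tested.

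Livers with the same replicate number had correlated deviations in some pairs only (0.0651, 0.356, 0.0193, 0.137 and -0.0662), and 1 of 5 FSH livers correlated best with its own number, so the numbers were not taken to pair the mice. With a replicate block, 1210 genes passed, Apoa4 was at -1.24 (limma adjusted p = 0.000387), and 0 pairs passed, since the smallest p that exact sign flips over the 5 numbers can give is 0.0625. In the ratio tests 0 pairs passed without the long-transcript libraries, and 0 to 1 with a liver left out.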

Other observations

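Other cell types were read as sums of their markers. Calls among the markers stand beside 10.6% of all genes called in limma. Stellate cell markers summed to between 211 and 310 CPM in FSH livers and between 245 and 350 CPM in saline livers, with 0 of 7 called in limma. Endothelial markers summed to between 131 and 196 CPM with FSH and between 151 and 177 CPM with saline (1 of 6 called, Lyve1), and cholangiocyte markers to between 48.2 and 69.5 CPM and between 38.3 and 55.7 CPM (1 of 5 tested called, Krt7). Erythroid genes summed to between 464 and 790 CPM with FSH and between 425 and 1010 CPM with saline. Adipocyte markers stayed at 7.38 CPM or less, with Lep at 0 in every liver, and pancreatic acinar markers at 1.21 CPM or less, with Prss2 and Pnlip at 0. Among hepatocyte markers, 1 of 7 was called (Fgb).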
